A study of Mus musculus with 2 samples.

Results

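The 10 genes described here are the mRNA genes that mitochondrial DNA holds for respiratory complexes I and IV: mt-Nd1, mt-Nd2, mt-Nd3, mt-Nd4, mt-Nd4l, mt-Nd5 and mt-Nd6 for complex I, and mt-Co1, mt-Co2 and mt-Co3 for complex IV. They were selected by gene symbol and not by a measured value, though with earlier results of these data known, and all 10 were found among the 11263 gene symbols of the deposited table. All 10 also passed a minimum mean level of 1 FPKM (fragments mapped to a gene, scaled to transcript length and library size), as did 10157 genes in all. The cells were primary vascular smooth muscle cells (VSMCs), which make the aortic wall contract, grown from mouse aorta. Cells infected with Ad-K5, the adenovirus carrying the transcription factor Klf5, were compared with cells infected with Ad-GFP, the control adenovirus, and each condition had 1 labelled library. The labels give strain C57BL/7 for Ad-K5 and strain C57BL/6 for Ad-GFP, and whether these strain labels are correct is not known. If the strains did differ, a difference of strain and the infection cannot be told apart. No age is given in the labels, whose treatment text describes a different cell line and a lentivirus, and whose culture medium is IMDM where the study's methods give low-glucose DMEM. How many animals or cultures stand behind a library is not given in the sources used here.

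Complex I, the NADH dehydrogenase, takes electrons from NADH and pumps protons across the inner mitochondrial membrane, and complex IV, cytochrome c oxidase, passes electrons from cytochrome c to oxygen. Both are built from subunits of 2 genomes: the membrane-embedded core proteins are made inside the organelle from mitochondrial DNA, and the other subunits are encoded in the nucleus and imported. Mitochondrial DNA is copied into long precursor RNAs that are cut, mostly at transfer RNAs, into mRNAs. Genes that overlap on the same strand need not end up on separate mRNA molecules, and mRNAs are counted here by gene. The mRNA of mt-Nd6 is read from the opposite strand to the others.

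Without replicate libraries there is no error for any value, no test was possible, and a difference seen here compares 2 libraries. The terms higher and lower are used here for genes at least 2-fold apart, on the scale of log2(FPKM + 1) in Ad-K5 minus the same in Ad-GFP, and other differences are given as values. The FPKM sum over all genes was 300045 in Ad-K5 and 278962 in Ad-GFP. The study's methods give an approximate number of reads per sample, but the table holds no read counts, so the reads behind each value are not known and no counting interval can be given. Klf5 itself was at 2.62 FPKM in Ad-K5 and 1.76 FPKM in Ad-GFP, a log2 ratio of 0.39 in the direction of the labels that did not reach 2-fold. Whether that value includes the transcript of the adenovirus was not tested. Of 10 smooth muscle markers 6 were measured, with a summed level of 258.7 FPKM in Ad-K5 and 293.8 FPKM in Ad-GFP. Acta2 (smooth muscle actin) was at 200.7 FPKM in Ad-K5 and 228.7 FPKM in Ad-GFP, whereas Myh11, the smooth muscle myosin heavy chain that defines the contractile state, was not measured here, and the calponin gene Cnn1 was at 0.860 FPKM in Ad-K5 and 0.782 FPKM in Ad-GFP.

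The sequences of the genes, taken from the GENCODE vM21 transcripts on GRCm38, show how tightly they are packed, which bears on what a read can be assigned to. The end of mt-Nd4l and the start of mt-Nd4 lie on the same strand and share 7 bases, in capitals here, from chrM:10167-10173.
mt-Nd4l end: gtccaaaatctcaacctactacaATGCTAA
mt-Nd4 start: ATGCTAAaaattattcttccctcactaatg
The ends of mt-Nd5 and mt-Nd6 face each other on opposite strands and overlap by 14 bases, in capitals and each written 5′ to 3′ on its own strand, from chrM:13552-13565.
mt-Nd5 end: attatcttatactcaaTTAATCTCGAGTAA
mt-Nd6 end: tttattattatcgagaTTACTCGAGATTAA
The first codons differ between members. The codon GTG opens mt-Nd1, ATG opens mt-Co1 (both in capitals), mt-Nd2 begins with ATA, mt-Nd3 with ATT and mt-Nd5 with ATC, all of which the mitochondrial code can read as a start.
mt-Nd1 start: GTGttctttattaatatcctaacactcctc
mt-Co1 start: ATGttcattaatcgttgattattctcaacc
The coding sequences of mt-Nd4 and mt-Co3 stop at the single T in capitals, the first base of a stop codon that is completed when the poly(A) tail is added to the cut mRNA.
mt-Nd4 end: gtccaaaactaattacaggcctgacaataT
mt-Co3 end: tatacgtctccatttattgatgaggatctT
The base makeup of mt-Nd6 set it apart from the other members. Its mRNA held 28.1% G and 5.97% C, whereas none of the 9 members of the other strand held over 16.1% G or under 22.1% C.

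Of the 10 genes, 9 had a ratio above 0, against 47.9% of all genes measured. Among nuclear genes at or above the lowest mean level of a member, 72.1% had a ratio above 0. The median log2 ratio of the 10 genes was 0.36, with a range of -0.03 to 1.29. Over all genes the median was -0.017, and the middle quartiles ran from -0.25 to 0.21. At least 2-fold higher in Ad-K5 was 1 of the 10, mt-Nd1, against 0.975% of all genes (99 genes), and none was at least 2-fold lower, against 0.679% (69 genes). With the libraries scaled to a common FPKM sum, mt-Nd1 was again the 1 member at least 2-fold higher, while over all genes 77 were higher and 107 lower. Summed, the 10 mRNAs were at 8382 FPKM in Ad-K5 and 5789 FPKM in Ad-GFP, which was 2.79% of the FPKM sum in Ad-K5 and 2.08% in Ad-GFP. Without mt-Nd1 the sum of the other 9 was 7089 FPKM in Ad-K5 and 5259 FPKM in Ad-GFP. In log2 terms the sum differed by 0.53 with mt-Nd1 and by 0.43 without it, whereas the sum over nuclear genes differed by 0.091. In bulk RNA, a larger share of cells rich in these mRNAs and more of these mRNAs per cell cannot be told apart.

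The members lay within the same order of level in the 2 libraries, from mt-Co1 down to mt-Nd6. The order from the highest was mt-Co1, mt-Co3, mt-Co2, mt-Nd1, mt-Nd2, mt-Nd3, mt-Nd4, mt-Nd5, mt-Nd4l and mt-Nd6. FPKM is per transcript length, which corrects for the length of a gene but not for sequence it shares with nuclear copies, and with 1 library each no spread is known that would say which neighbours in the order differ. The closest neighbours were mt-Co2 and mt-Nd1 in Ad-K5, at 1297 and 1294 FPKM, and mt-Nd3 and mt-Nd4 in Ad-GFP, at 293.3 and 276.8 FPKM. Of the 100 highest genes in each library, 6 were members in Ad-K5 and 5 in Ad-GFP.

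**Figure D1:**
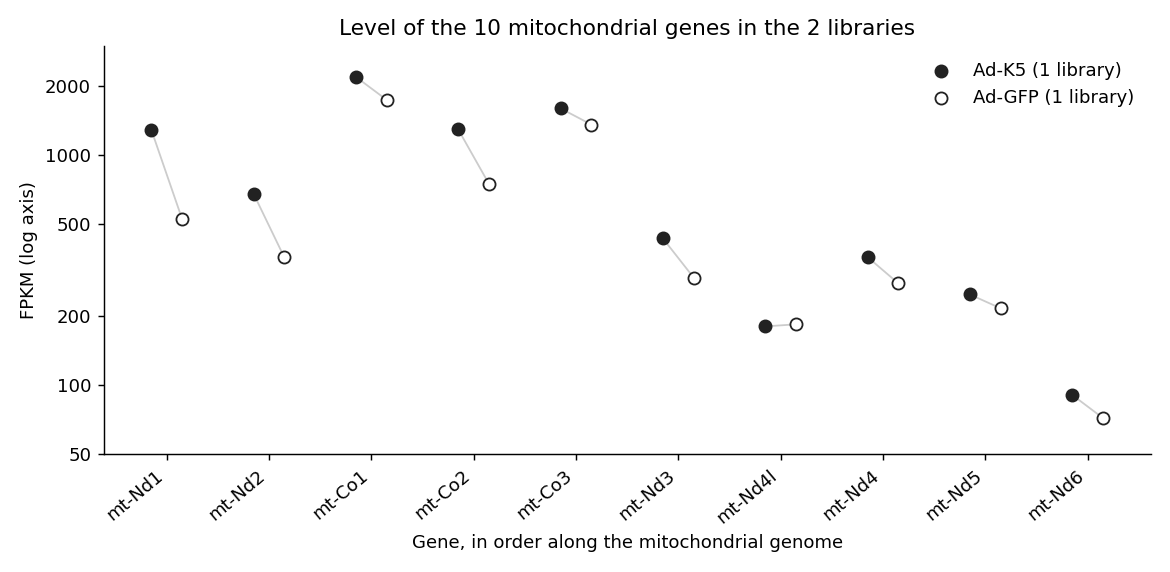
Level of each of the 10 genes in FPKM (y axis, log scale), in order along the mitochondrial genome (x axis), with filled points for the Ad-K5 library, open points for the Ad-GFP library and a grey line joining the points of a gene. The step is steepest for mt-Nd1 (1294 FPKM in Ad-K5 and 529.8 FPKM in Ad-GFP), and mt-Nd4l is the gene whose Ad-K5 point (179.6 FPKM) is below its Ad-GFP point (183.4 FPKM).

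Among the complex I genes, mt-Nd1 (ENSMUSG00000064341.1, chrM:2751-3707, + strand) encodes the subunit at the joint of the membrane arm and the matrix arm, beside the quinone channel. It was at 1294 FPKM in Ad-K5 and 529.8 FPKM in Ad-GFP, 2.44-fold higher, for a log2 ratio of 1.29. This ratio ranked 44 among the 10157 genes, with 99.6% of genes below it. The mRNA was the number 17 gene by level in Ad-K5 and number 44 in Ad-GFP, and it made up 15.4% of the summed FPKM of the 10 members in Ad-K5 and 9.15% in Ad-GFP. Relative to mt-Co1 it stood at 0.589 in Ad-K5 and 0.303 in Ad-GFP.

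The genes mt-Nd2, mt-Nd4 and mt-Nd5 encode the antiporter-like subunits of the proton-pumping membrane arm. Among them mt-Nd2 (ENSMUSG00000064345.1, chrM:3914-4951, + strand), which follows mt-Nd1 on the genome, was at 679.8 FPKM in Ad-K5 and 359.1 FPKM in Ad-GFP, a log2 ratio of 0.92. It came nearest to 2-fold of the members that did not reach it. For mt-Nd4 (ENSMUSG00000064363.1, chrM:10167-11544, + strand) the level was 360.4 FPKM in Ad-K5 and 276.8 FPKM in Ad-GFP, a log2 ratio of 0.38. The longest member, mt-Nd5 (ENSMUSG00000064367.1, chrM:11742-13565, + strand, 1824 bases), was at 247.5 FPKM in Ad-K5 and 215.4 FPKM in Ad-GFP, a log2 ratio of 0.20. The 3 antiporter-like subunits thus had ratios that ran down in the order of their genes, and that of mt-Nd5 was within the middle quartiles of all genes.

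The small subunits mt-Nd3, mt-Nd4l and mt-Nd6 sit in the part of the membrane arm between mt-Nd1 and the antiporter-like subunits. The level of mt-Nd3 (ENSMUSG00000064360.1, chrM:9459-9806, + strand) was 434.4 FPKM in Ad-K5 and 293.3 FPKM in Ad-GFP, a log2 ratio of 0.56. The shortest member, mt-Nd4l (ENSMUSG00000065947.3, chrM:9877-10173, + strand, 297 bases), was at 179.6 FPKM in Ad-K5 and 183.4 FPKM in Ad-GFP, a log2 ratio of -0.03. Although mt-Nd4l and mt-Nd4 overlap by 7 bases, mt-Nd4 was at 2.01 times the FPKM of mt-Nd4l in Ad-K5 and 1.51 times in Ad-GFP. The values of such overlapping neighbours need not be those of separate mRNA molecules. The lowest member, mt-Nd6 (ENSMUSG00000064368.1, chrM:13552-14070, − strand), was at 90.3 FPKM in Ad-K5 and 71.6 FPKM in Ad-GFP, a log2 ratio of 0.33. Set against mt-Co1, mt-Nd6 was at 0.0411 in Ad-K5 and 0.0410 in Ad-GFP, since both genes had a ratio of 0.33. Its share of the members' sum was 1.08% in Ad-K5 and 1.24% in Ad-GFP, and mt-Nd5 was at 2.74 times its FPKM in Ad-K5 and 3.01 times in Ad-GFP. The labels describe a library made with dUTP in the second strand, which marks strand, but whether the authors' counting used the strand is not given in the sources used here. Without it, reads from the 2 strands cannot be told apart anywhere along mt-Nd6, the overlap with mt-Nd5 included. The level and ratio of mt-Nd6 may then include RNA of the other strand, which was not tested.

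Of the complex IV genes, mt-Co1 (ENSMUSG00000064351.1, chrM:5328-6872, + strand) encodes the subunit that holds the haem and copper centre where oxygen is reduced. It was the highest member, at 2198 FPKM in Ad-K5 and 1746 FPKM in Ad-GFP (log2 ratio 0.33), and ranked 3 among all genes in Ad-K5 and 4 in Ad-GFP. The subunit of mt-Co2 (ENSMUSG00000064354.1, chrM:7013-7696, + strand) receives electrons from cytochrome c. Its mRNA was at 1297 FPKM in Ad-K5 and 751.0 FPKM in Ad-GFP, a log2 ratio of 0.79. The third core subunit, which has no redox centre, is encoded by mt-Co3 (ENSMUSG00000064358.1, chrM:8607-9390, + strand), and its mRNA was at 1602 FPKM in Ad-K5 and 1363 FPKM in Ad-GFP, a log2 ratio of 0.23. With the libraries scaled to a common FPKM sum, the ratio was 0.13 for mt-Co3, 0.09 for mt-Nd5 and -0.13 for mt-Nd4l. All 3 complex IV genes so had ratios above 0 and below 2-fold, and mt-Co2 stood at 0.590 of mt-Co1 in Ad-K5 and 0.430 in Ad-GFP.

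By complex, the 7 complex I mRNAs summed to 3286 FPKM in Ad-K5 and 1930 FPKM in Ad-GFP (log2 0.77), and the 3 complex IV mRNAs to 5097 FPKM in Ad-K5 and 3860 FPKM in Ad-GFP (log2 0.40). The gap between the complexes was smaller without mt-Nd1, where the other 6 complex I mRNAs summed to 1992 FPKM in Ad-K5 and 1400 FPKM in Ad-GFP, a log2 difference of 0.51. The median ratios of the complexes were 0.38 for complex I and 0.33 for complex IV.

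Read along the genome from mt-Nd1 to mt-Nd6, the ratios were 1.29, 0.92, 0.33, 0.79, 0.23, 0.56, -0.03, 0.38, 0.20 and 0.33. The 2 first genes thus had the 2 highest ratios, and after them the values alternated without a steady slope. The rank correlation of ratio with gene order was -0.70 over the 10 genes and -0.73 over the 9 on the + strand (Spearman's rho). These points come from the same 2 libraries and from shared precursor RNAs, so the coefficients are descriptions of 1 pair of libraries. With gene length the coefficient was 0.091 over the 10 genes, and with GC content it was -0.35.

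The other 3 mRNAs of mitochondrial DNA had ratios within the members' range. The level of mt-Cytb, the core cytochrome of complex III and the last mRNA gene in this order, was 828.9 FPKM in Ad-K5 and 512.7 FPKM in Ad-GFP, a log2 ratio of 0.69. With it, the coefficient with gene order over all 13 mRNAs was -0.58. The ATP synthase genes mt-Atp8 and mt-Atp6, which overlap by 43 bases, had log2 ratios of 0.51 and 0.73. Despite this overlap, mt-Atp8 was at 4.54 times the FPKM of mt-Atp6 in Ad-K5 and 5.29 times in Ad-GFP. As for mt-Nd4l and mt-Nd4, these values need not be those of separate mRNA molecules, so the gap need not be one between mRNA levels.

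**Figure D2:**
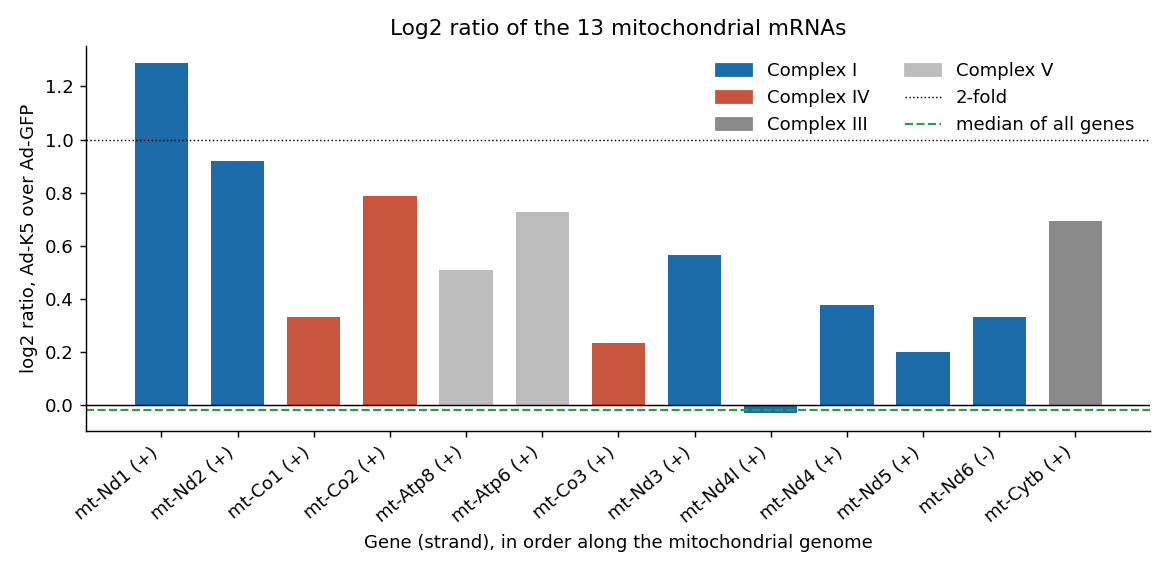
Log2 ratio of Ad-K5 over Ad-GFP (y axis) for the 13 mitochondrial mRNAs in genome order with their strand (x axis), coloured by complex, with the 2-fold line dotted and the median of all genes (-0.017) dashed. The bar of mt-Nd1 (1.29) crosses the 2-fold line, mt-Nd2 (0.92) is just under it, and mt-Nd4l (-0.03) is the bar below 0.

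Part of the sequence of these genes also stands in the nuclear genome, in copies of mitochondrial DNA. The copies are annotated as pseudogenes and have no values here, where protein-coding genes are listed. On chromosome 1 a run of 7 pseudogenes (chr1:24611535-24616197, 4663 bases, − strand) matches mitochondrial DNA from mt-Co1 to mt-Nd4. Base for base, Gm28661 was identical to mt-Co2 over 681 of 681 bases, Gm28437 to mt-Co3 over 783 of 783, Gm10222 to mt-Nd4l over 294 of 294 and Gm28439 to mt-Nd4 over 876 of 876. The copy of mt-Nd3, Gm28438, matched at 344 of 345 bases, and the base that differs, in capitals, lies in the first codon. The sequences are chrM:9459-9518 and chr1:24613060-24613119.
mt-Nd3: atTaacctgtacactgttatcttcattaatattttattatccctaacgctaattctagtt
Gm28438: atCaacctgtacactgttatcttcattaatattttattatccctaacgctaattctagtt
A copy of mt-Nd2 on chromosome 2, Gm13339, had diverged further, with 493 of 510 bases identical. The stretch with the most differences holds 4 in 60 bases (chrM:4580-4639 and chr2:22590336-22590395), shown in capitals.
mt-Nd2: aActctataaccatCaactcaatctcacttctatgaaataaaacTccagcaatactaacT
Gm13339: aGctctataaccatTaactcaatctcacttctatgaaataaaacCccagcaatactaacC
In windows of 50 bases, none of those of mt-Nd1 and mt-Nd6 occurred in a nuclear transcript of the annotation. Nuclear sequence outside annotated transcripts was not searched, so a share of 0% does not mean that no nuclear copy exists. The share was 8.19% for mt-Nd2, 7.61% for mt-Nd5, 51.1% for mt-Co1 and 62.2% for mt-Nd4. It was 98.0% for mt-Nd3, 98.8% for mt-Nd4l, 99.9% for mt-Co3 and 100% for mt-Co2. Beside the members, it was 0% for mt-Atp8 and mt-Cytb and 99.5% for mt-Atp6. The 4 members with under 10% of their windows shared (mt-Nd1, mt-Nd2, mt-Nd5 and mt-Nd6) had a median log2 ratio of 0.62 and a range of 0.20 to 1.29. The 6 with over 50% shared had a median of 0.36 and a range of -0.03 to 0.79. The ranges of the groups overlapped, and the rank correlation of ratio with the shared percentage was -0.18 over the 10 genes. How the authors treated reads that match more than 1 place is not given in the sources used here. The part of the copies in the values, in the levels as in the ratios, was not tested.

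**Figure D3:**
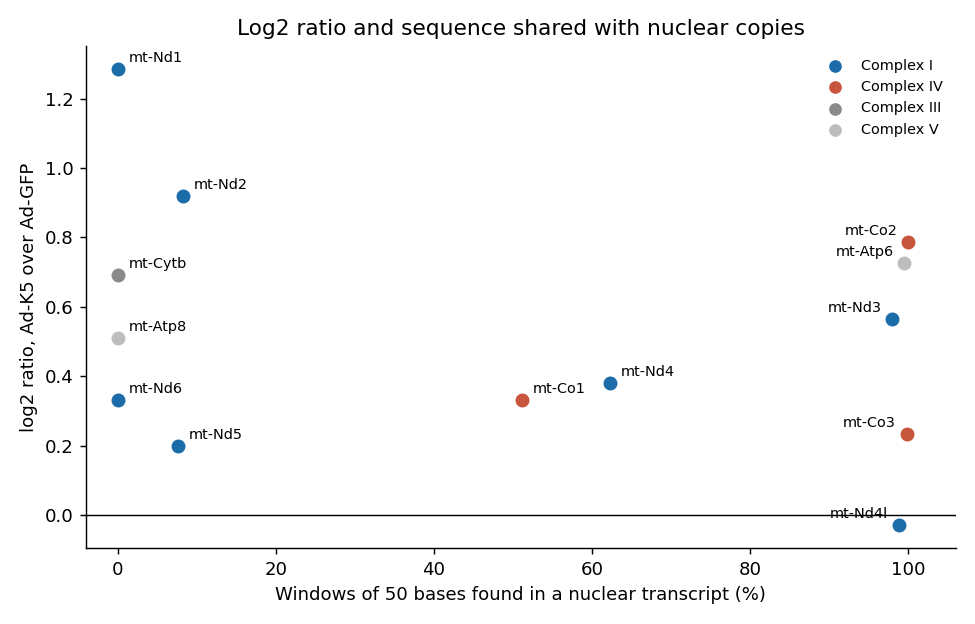
Log2 ratio of Ad-K5 over Ad-GFP (y axis) against the percentage of a gene's windows of 50 bases that occur in a nuclear transcript (x axis), 1 point for each of the 13 mitochondrial mRNAs, coloured by complex. Genes with no window in an annotated nuclear transcript run from mt-Nd6 (0.33) to mt-Nd1 (1.29). Genes with nearly all windows shared run from mt-Nd4l (-0.03) to mt-Co2 (0.79).

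The nuclear genes for the same complexes had smaller ratios than mt-Nd1 and mt-Nd2, and none of them was 2-fold apart. Of the 36 nuclear complex I subunits measured, 33 were above 0, with a median of 0.27, and they summed to 3286 FPKM in Ad-K5 and 2749 FPKM in Ad-GFP. Among the 7 core subunits, 5 were above 0 (median 0.20). These were led by the iron-sulfur subunit Ndufs8, at 157.4 FPKM in Ad-K5 and 115.2 FPKM in Ad-GFP (0.45), while Ndufs1, which holds several iron-sulfur clusters, was at 8.63 FPKM in Ad-K5 and 11.2 FPKM in Ad-GFP (-0.34). The ratio was 0.32 for Ndufs7 and 0.21 for Ndufv1, which binds NADH. Of the 29 supernumerary subunits, which surround the core, 28 were above 0 (median 0.30), with Ndufa12 at 0.67, Ndufb4 at 0.61 and Ndufa11 and Ndufb5 both at 0.53. For complex IV, 11 of 12 nuclear subunits were above 0, with a median of 0.38 beside the 0.33 of the 3 mitochondrial genes. The largest ratios there were those of Cox7b (0.55), Cox7c (0.53), Cox5a (0.51) and Cox5b (0.47), and the 12 summed to 2370 FPKM in Ad-K5 and 1830 FPKM in Ad-GFP.

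Genes that copy, cut and tail mitochondrial RNA are all nuclear. Of the factors of mitochondrial DNA transcription and replication 15 were measured among 21 listed symbols, 4 of which are older names of genes that the list also holds, and 7 of the 15 were above 0 (median -0.12). The mitochondrial RNA polymerase Polrmt was at 10.8 FPKM in Ad-K5 and 10.4 FPKM in Ad-GFP, and the DNA-packaging transcription factor Tfam was at 9.89 FPKM in Ad-K5 and 10.9 FPKM in Ad-GFP. The largest ratios of that list were 0.58 for Tfb1m, which methylates the mitochondrial small ribosomal RNA, -0.54 for Mterf2, -0.43 for the mitochondrial exonuclease Mgme1 and 0.39 for Mterf3. Of the factors of RNA processing, polyadenylation and decay 20 were measured. The list held 21 symbols, 1 of which is another name of a gene that was measured. Among the 20, 19 were above 0 (median 0.29). They included Tbrg4 (0.75), a FASTK-family factor, Elac2 (0.64), which cuts precursors at the end of transfer RNAs, Fastkd5 (0.61), needed to cut mRNAs that no transfer RNA borders, and the small-RNA nuclease Rexo2 (0.51). Of 7 regulators of mitochondrial biogenesis 5 were measured, with a median of 0.14, and Pprc1 was at 0.52, Gabpb1 at 0.36, Gabpa at 0.14 and Nrf1 at -0.17. The coactivator genes Ppargc1a and Ppargc1b were not measured here. No gene of these 3 lists was 2-fold apart.

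**Figure D4:**
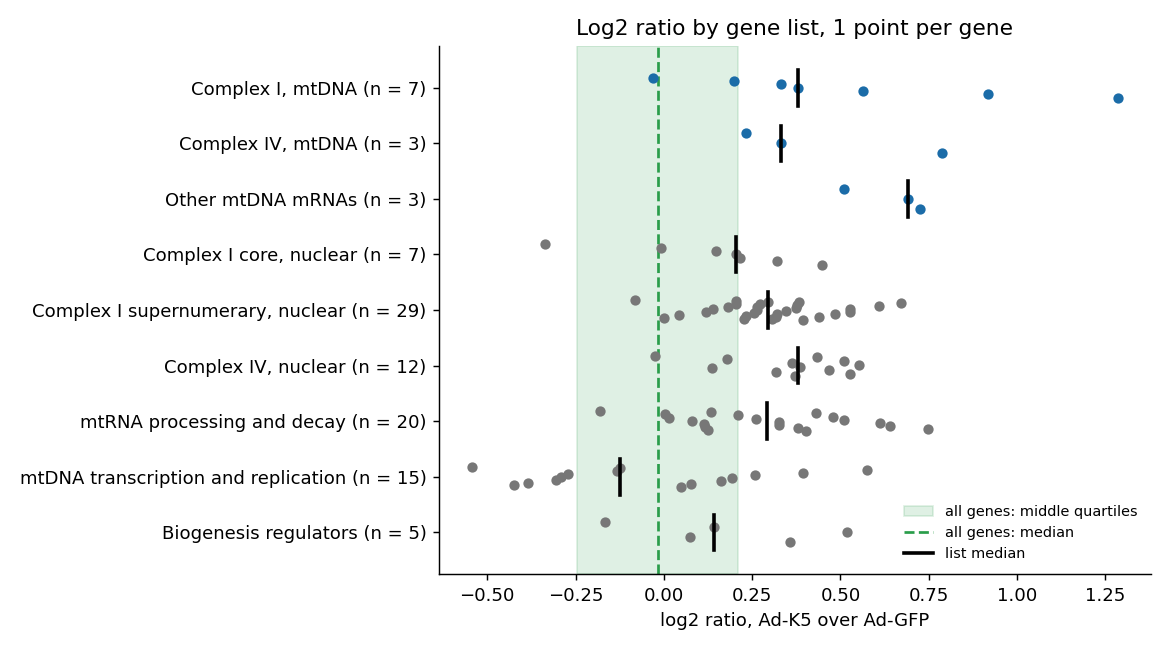
Log2 ratio of Ad-K5 over Ad-GFP (x axis) for each gene of 9 lists (rows), 1 point a gene, with a black bar at the list median, the median of all genes dashed and their middle quartiles shaded. The list medians run from -0.12 for mitochondrial DNA transcription and replication to 0.69 for the 3 other mitochondrial mRNAs, and mt-Nd1 (1.29) and mt-Nd2 (0.92) are the points farthest to the right.

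Short and highly expressed genes shared the direction of the members. Nuclear genes with an exon length up to that of mt-Nd5 (1824 bases) had a median log2 ratio of 0.17, with 797 of 1138 genes above 0, and longer ones a median of -0.044, with 4048 of 8991 above 0. Nuclear genes at or above the mean level of mt-Nd6 (81.0 FPKM) had a median of 0.16, with 463 of 642 genes above 0. The medians of the 10 members (0.36) and of the 13 mRNAs (0.51) were above these, and the ratios of mt-Nd4l and mt-Nd5 were close to them or below, at -0.03 and 0.20. The part of length and level in the members' ratios was not tested. The list of 6 mesothelial markers, chosen with earlier results of these data known, had 4 that were measured. All 4 were at least 2-fold higher in Ad-K5, against 0.975% of all genes. They were Msln (3.33), Upk3b (2.27), Upk1b (1.80) and Krt19 (1.62), with a summed level of 124.6 FPKM in Ad-K5 and 21.5 FPKM in Ad-GFP, while Wt1 and Lrrn4 were not measured here. The 6 smooth muscle markers measured had a median of -0.23, the largest ratios being those of Lmod1 (-0.58), Tagln (0.44), Myl9 (-0.31) and Smtn (-0.28). Among the fibroblast markers 2 of 6 were measured, with a summed level of 76.7 FPKM in Ad-K5 and 89.2 FPKM in Ad-GFP (Pdgfra -1.39, Dcn -0.07). None of 6 endothelial markers had a value here, nor had 5 of 6 leukocyte markers, and the other 1 was under the minimum level. Whether the marker values reflect a change in cell makeup or in expression within the same cells was not tested. Nor was the part of either in the members' ratios.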

How the data were processed

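RNA of Ad-K5-infected and Ad-GFP-infected mouse aortic VSMCs was sequenced, with 1 labelled library per group. The authors deposited FPKM values for both libraries in 1 table of protein-coding genes. StringTie, STAR 2.5.2b, HISAT2 2.0.5, cutadapt and the build mm8 stand in the submitters' processing notes, without their roles, whereas the study's methods name HTSeq and a human genome. The start and end of all 13 mitochondrial rows, and of 10291 of 11275 rows in all, are those of GENCODE vM21 on GRCm38. Beside these values the table holds a log2 fold change, a fold change, p-values and q-values of the authors, which were not used, and 2 columns headed only 1 and 2, which no label ties to a library and which were not used either. The reads behind each value are not known.

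From the deposited FPKM, rows sharing a symbol (12 symbols) were summed, and log2 ratios were taken with a pseudocount of 1 for genes that averaged 1 FPKM or more. This scale understates changes where FPKM is low. Genes were counted at 2-fold. With 1 library per group no test was run. Sequences came from the GENCODE vM21 transcripts, and every window of 50 bases of a mitochondrial mRNA was searched, on either strand, in all nuclear transcripts. Genes named are all members, the 3 other mitochondrial mRNAs, Klf5 and up to 4 measured genes of each list by size of the ratio. The genes Polrmt, Tfam, Acta2, Cnn1 and those said not to be measured were named after their values were seen. The members and the lists were chosen with earlier results of these data known, and the groups by exon length, by level and by nuclear copies, and the sum without mt-Nd1, were added once the data had been seen. Calculations were tested on simulated data and used matplotlib 3.10.9, scipy 1.17.1, pandas 2.3.3, numpy 2.4.6 and Python 3.11.15.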

Additional observations from a re-analysis of the deposited data

How the results depend on the processing

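The log2 ratios of the 13 mitochondrial mRNAs and the median of the 10 members kept their direction and their side of 2-fold under pseudocounts of 0.1 and 5, a minimum mean of 5 or 100 FPKM or none, scaling to a common FPKM sum over all or over nuclear genes, centring on the median of all genes, and keeping the highest row of a symbol. At the minimum of 100 FPKM, mt-Nd6 was no longer measured. The sum of the 10 members, which uses no pseudocount or filter, was recomputed under both scalings and the highest row, with a log2 difference of at least 0.43. The medians of the other mitochondrial mRNAs, the nuclear subunits and the 3 lists of mitochondrial factors kept their direction where they were run, which for those 3 lists excludes the minimum of 100 FPKM. Medians of the marker lists were not recomputed. The ratio of mt-Nd1 ran from 1.18 to 1.30, that of mt-Nd2 from 0.81 to 0.94 and that of mt-Nd4l from -0.13 to -0.013. Lower values came from scaling to a common FPKM sum over all or nuclear genes, with mt-Nd5 at 0.09 or 0.11, mt-Co3 at 0.13 or 0.14, and medians of 0.10 or 0.11 for the nuclear complex I core, 0.19 or 0.20 for its supernumerary subunits, 0.16 or 0.18 for all its nuclear subunits and 0.07 or 0.08 for the biogenesis regulators. With a pseudocount of 5 the median was 0.12 for RNA processing, 0.07 for the biogenesis regulators and -0.04 for transcription and replication. At a minimum of 5 FPKM it was 0.30 for the biogenesis regulators and -0.21 for transcription and replication. Counts over all genes moved more. With a pseudocount of 0.1, 159 genes were at least 2-fold higher and 189 lower, and with 5 these were 33 and 19. At a minimum mean of 5 FPKM (6712 genes) there were 65 and 45, and with 100 FPKM (493 genes) 7 and 1, since fewer genes were counted. Scaled to a common FPKM sum over all genes, 77 genes were higher and 107 lower, so that lower genes outnumbered higher ones, and the median of all genes was -0.11. With nuclear genes only in that sum, 78 were higher and 102 lower. No paired analysis was possible because each group had 1 library, and for the same reason no replicate could be left out. The reads behind each value are not known, so the precision that depth gives cannot be stated.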
